A study of Canis lupus familiaris with 51 samples.

Results

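The small leucine-rich proteoglycans are secreted matrix proteins, and 9 of their genes, DCN, LUM, BGN, FMOD, OGN, ASPN, PRELP, OMD and PODN, were followed here across 51 canine cutaneous mast cell tumors (MCTs). Members were taken as every probe whose gene name or description on the array was that of one of these genes. A probe was found for 8 of the 9 genes, 14 probes in all, among 11654 gene symbols named on the array. OMD (osteomodulin) had no probe and is not analysed here.

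Each tumor was a spontaneous MCT of a client-owned dog, sampled from the centre of the mass at surgery or diagnosis, and its RNA was hybridized to a one-colour canine oligonucleotide array, of which 1 per tumor is analysed here. The dogs were of mixed breeds, with 14 crossbred dogs, 9 Boxers and 9 Labrador Retrievers, aged from 3 to 14 years, 30 female and 19 male where the sex was given. The study set apart 18 reference tumors on histology, 5 undifferentiated (Patnaik grade G2 or G3, Kiupel high grade, high mitotic index) and 13 differentiated (Patnaik grade G1 or G2, Kiupel low grade, low mitotic index). It classified the other 33 tumors from 13 transcripts measured on these same arrays, none of them a member, into 7 predicted undifferentiated and 26 predicted differentiated tumors. All samples were whole tumor tissue with its stroma. No normal skin was compared, so every difference below lies between classes of tumor.

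The proteins of this family share a short protein core built of leucine-rich repeats, to which chondroitin, dermatan or keratan sulfate chains are attached in most members. They bind collagen fibrils and set their diameter and spacing, and several of them also bind growth factors of the TGF-beta family and cell surface receptors. In skin they are made mainly by dermal fibroblasts, and decorin is the best known of them. The repeat can be read in the probes themselves. A run of leucine and asparagine codons spaced as in the repeat core (leucine, any 2 residues, leucine, any residue, leucine, any 2 residues, asparagine) was found in 2 of the 14 member probes and in 45 of the 43603 probes of the array (0.103%). Both are shown because PODN carried the clearest class difference and FMOD shows the same repeat in a keratan sulfate member. They are written 5′ to 3′, with the codons of the leucines and the asparagine in capitals.

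PODN probe 1: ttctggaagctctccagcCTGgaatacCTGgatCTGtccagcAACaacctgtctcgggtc

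FMOD probe 1: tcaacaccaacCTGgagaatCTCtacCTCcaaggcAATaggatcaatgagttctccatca

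The array files place the probes in 5 parts of the dog genome, in a build that the files do not name. The LUM probes (chr15:34806150-34806209 and chr15:34810044-34810103) and the DCN probes (chr15:34846628-34846687 and chr15:34862942-34863001) lay near each other on the minus strand. ASPN (chr1:101964834-101964893) and OGN (chr1:102026547-102026606) shared the plus strand of chromosome 1. The FMOD probes (chr38:3103830-3108381, chr38:3108825-3108884 and chr38:3108931-3108990, minus strand) lay near PRELP (chr38:3207100-3207159, plus strand). BGN (chrX:124377656-124377715, plus strand) stood alone. The 3 PODN probes (chr5:58837006-58837612, chr5:58838149-58839336 and chr5:58833239-58833258, minus strand) were described on the array as podocan but carried the gene name SCP2, which RefSeq gives to a separate gene beside PODN. A probe whose start and end lie far more than its own length of 60 bases apart spans introns of the gene.

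Levels are log2 processed intensities after quantile normalization over the 51 arrays, so 1 unit is a 2-fold difference, and levels of different probes are not comparable with each other. Between 59.4% and 74.8% of the spots of an array stood well above background (the scanner's call). Arrays correlated with each other at r 0.907 to 0.988. Probes of the same gene ran together in DCN (r 0.94 over the 51 tumors) and LUM (r 0.97), and in the first 2 PODN probes (r 0.93). The third PODN probe was well above background in 4 of 51 tumors and did not follow the first (r 0.11). FMOD was dim, with its brightest probe well above background in 25 of 51 tumors. Unless another probe is named, values are those of the brightest probe of a gene. With 1 array for each tumor, the spread below is that between tumors.

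Decorin, the dermatan sulfate proteoglycan that decorates collagen fibrils and binds TGF-beta, was well above background in every tumor at 16.8 ± 0.44 (log2, SD, n = 51). It spanned a 3.71-fold range. Lumican, a keratan sulfate proteoglycan that keeps collagen fibrils thin, stood at 13.6 ± 0.97 (log2, SD, n = 51) and spanned a 15.8-fold range. OGN varied most of the 8 genes, at 6.13 ± 1.77 (log2, SD, n = 51). The OGN spread was wider than that of 97.5% of all probes. OGN was well above background in 43 of 51 tumors, so values not above background, down to 1.77 (log2), are part of this spread. The DCN spread was wider than that of 40.4% by its first probe. By the second DCN probe it was wider than that of 77.3%, over an 11.7-fold range.

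**Figure D1:**
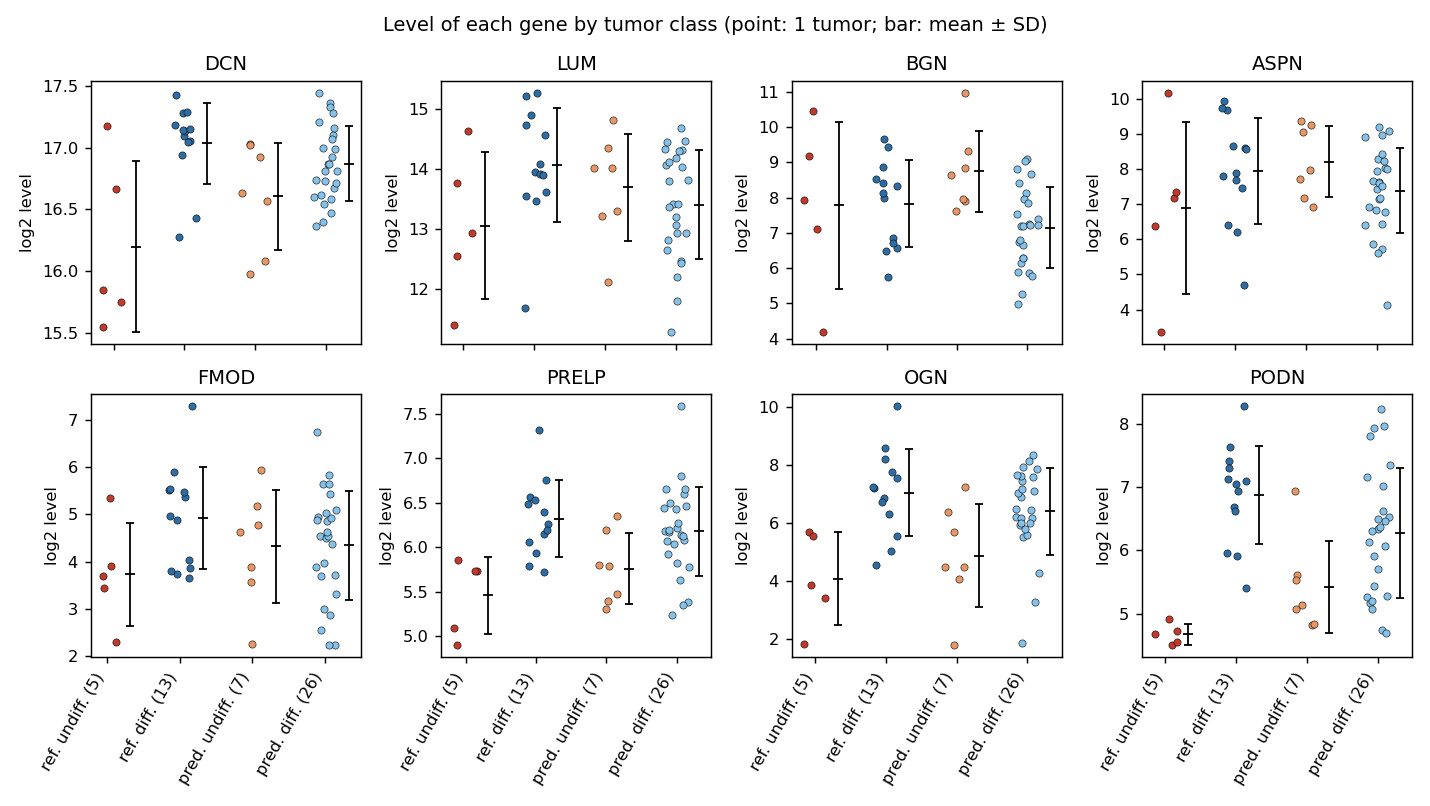
Log2 level of the 8 measured genes (y axis, each panel on its own scale) in the 4 tumor classes, with 1 point for each tumor and bars for the mean ± SD. All 5 reference undifferentiated tumors lie between 4.50 and 4.91 for PODN, below every reference differentiated tumor, whereas the classes overlap in the other 7 panels.

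The first comparison set the 5 undifferentiated against the 13 differentiated reference tumors and asked which transcripts differ with histological grade. PODN was the only one of the 8 measured genes that passed an adjusted p under 0.01 and at least 2-fold in limma. These limits are those of the study, which applied them with SAM. PODN fell 4.63-fold in undifferentiated tumors. Neither PODN nor SCP2 is a name in the study's list of lower transcripts. OGN did not pass. DCN, PRELP, LUM, ASPN and FMOD had lower means in undifferentiated tumors without passing, and BGN had nearly equal means. Of all 43603 probes 0.871% were called lower, and 0.975% higher. A single gene of 8 is a small count to read against that background. At an adjusted p under 0.05 with no limit on the fold, 4 of the 8 genes (PODN, OGN, PRELP and DCN) were lower and 0 were higher, where 3.69% of all probes were lower and 4.4% higher. All 8 estimates were negative with a median of -1.03 (log2), against 0.04 over all probes.

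PODN encodes podocan, a collagen-binding member first found in sclerotic kidney glomeruli. Its level was 4.91, 4.50, 4.67, 4.55 and 4.72 (log2) in the undifferentiated tumors T9, T57, T73, T90 and LM0. The 13 differentiated tumors ran from 5.41 in T112 through a median of 7.06 to 8.28 in T100. The groups did not overlap, a separation that 0.505% of all probes showed in this direction and 0.826% in the other. The undifferentiated values were also close together, and 2 of the 5 were not well above background. The log2 difference was -2.21 (SE 0.34, limma adjusted p = 0.000836). The second PODN probe was not well above background in any of the 5 undifferentiated tumors, and the gene was at least 3.53-fold lower by that probe (limma adjusted p = 0.00317, measured means 2.82 and 5.91). Within the 4 scan sessions that held both classes, the PODN difference was -1.78, -2.64, -2.50 and -2.53 (log2). Each of these values sets 1 undifferentiated tumor (T9, T57, T73 and T90 in turn) against 1, 2, 2 and 4 differentiated tumors. With the session as a fixed block the PODN difference was -2.41 with a limma adjusted p of 0.0148, which no longer passed. With normexp background correction, which adds an offset of 50 to every spot, it was -0.74 with an adjusted p of 0.0108 and passed neither limit.

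OGN encodes osteoglycin, also called mimecan, a keratan sulfate member that takes part in fibril assembly. Its level was 3.41, 5.67, 1.82, 5.57 and 3.86 (log2) in T9, T57, T73, T90 and LM0, with 2 of these 5 well above background. The differentiated tumors ran from 4.54 in T62 through a median of 7.23 to 10.03 in T64. All 5 undifferentiated tumors were below the differentiated median and 3 were below every differentiated tumor. The log2 difference was -2.98 (SE 0.76) at a limma adjusted p of 0.0228, and 3 of the 5 undifferentiated tumors were not well above background.

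PRELP, an arginine- and proline-rich member that binds heparan sulfate at basement membranes, stood at 5.73, 5.85, 4.90, 5.09 and 5.73 (log2) in T9, T57, T73, T90 and LM0. Its differentiated tumors ran from 5.72 through a median of 6.27 to 7.32. All 5 undifferentiated tumors were below that median, with a log2 difference of -0.86 (SE 0.22, limma adjusted p = 0.0240), a 1.82-fold difference that missed both limits. DCN stood at 15.55, 17.18, 15.75, 16.66 and 15.85 (log2) in the same tumors, and at 16.27, 17.13 and 17.43 as the lowest, median and highest of the differentiated tumors. By this first DCN probe T57 stood near the highest differentiated tumor, and 3 of the other undifferentiated tumors were below every differentiated one. By the second DCN probe T57 stood at 15.64, below the differentiated median of 15.77 and the highest differentiated value of 16.81. The DCN difference was -0.84 (SE 0.23, limma adjusted p = 0.0336) by its first probe and -1.50 (SE 0.38, adjusted p = 0.0218) by its second. Without T57 the first probe was at -1.08 with an adjusted p of 0.00364 and passed. When spots with a flagged background region were also set to missing, which removed 12 of the 51 values of the first DCN probe, its difference was -1.45 with an adjusted p of 0.000388 and DCN was called. Such flags fell on 34.9% of the 100 brightest spots, and their part in the result was not tested.

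BGN and ASPN separated undifferentiated tumors from each other rather than from differentiated ones. Biglycan, which carries a pair of sulfated chains and acts as a signal of matrix damage at Toll-like receptors, stood at 4.18, 10.46, 7.93, 7.12 and 9.19 (log2) in T9, T57, T73, T90 and LM0. Asporin, its close relative without such chains, stood at 3.36, 10.16, 7.18, 7.36 and 6.37. For both genes T57 was above and T9 was below all 13 differentiated tumors, and neither gene was well above background in T9. The class differences were -0.05 for BGN (SE 0.80, limma adjusted p = 0.979) and -1.06 for ASPN (SE 0.90, adjusted p = 0.512). Their 95% intervals ran from -1.73 to 1.63 for BGN and from -2.95 to 0.83 for ASPN, so a 2-fold difference either way lay within the interval for BGN. Without T9 the BGN estimate was 0.85, and without T57 that of ASPN was -1.88, with adjusted p-values of 0.518 and 0.175.

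LUM was 11.40, 14.62, 12.54, 12.93 and 13.76 (log2) in T9, T57, T73, T90 and LM0, against 11.68, 13.94 and 15.26 as the lowest, median and highest of the differentiated tumors (log2 difference -1.01, SE 0.51, limma adjusted p = 0.248). FMOD, which steers collagen cross-linking and competes with lumican for fibrils, was well above background in 1 of 5 undifferentiated and 8 of 13 differentiated tumors (log2 difference -1.20, SE 0.55, adjusted p = 0.192). T9 was among the 5 lowest of all 51 tumors for 6 of the 8 genes. T64, a differentiated tumor, was among the 5 highest for 6 of the 8 genes.

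The study's classification of the other 33 tumors allowed a related contrast in tumors that the reference comparison did not use. These predicted classes were set by transcripts on the same arrays and not by histology. The paper states that pathologists had not agreed on the grade of these tumors. The predicted comparison is therefore not a repeat of the histological one, and a member that passes in only 1 of them does not show a failed repeat. No member passed in the 7 predicted undifferentiated against the 26 predicted differentiated tumors, where 0.261% of all probes were called lower and 0.741% higher. At an adjusted p under 0.05 with no limit on the fold, BGN was higher and no member was lower, where 3.2% of all probes were higher and 2.64% lower. BGN stood at 7.61, 8.63 and 10.97 (log2; lowest, median and highest) in predicted undifferentiated tumors and at 4.98, 7.22 and 9.103 in predicted differentiated ones. All 7 were above the differentiated median, with a log2 difference of 1.61 (SE 0.48), 3.05-fold, at an adjusted p of 0.0382. With the scan session as a fixed block the BGN difference was 1.31 with an adjusted p of 0.243.

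OGN stood at 1.77, 4.48 and 7.23 (log2; lowest, median and highest) in the predicted undifferentiated and at 1.86, 6.47 and 8.34 in the predicted differentiated tumors, a difference of -1.53 (SE 0.64, limma adjusted p = 0.166). PODN stood at 4.81, 5.14 and 6.93 against 4.70, 6.33 and 8.23, a difference of -0.86 (SE 0.41, adjusted p = 0.234). The PODN ranges overlapped here, since the lowest predicted differentiated tumor was below all 7 predicted undifferentiated tumors. DCN differed by -0.27 (adjusted p = 0.318) and PRELP by -0.42 (adjusted p = 0.240). LUM, ASPN and FMOD differed by 0.29, 0.82 and -0.03, with adjusted p-values of 0.752, 0.379 and 0.984.

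The class differences themselves were compared between reference and predicted tumors by an interaction term over the 51 tumors. No member passed at an adjusted p under 0.05, against 0.0963% of all probes, and 3 members had an unadjusted limma p under 0.05, as did 5995 of the 43603 probes. These were PODN, whose difference was 1.35 less negative in predicted tumors (SE 0.59, unadjusted p = 0.0266, adjusted p = 0.302), DCN (0.57, unadjusted p = 0.0301) and LUM (1.30, unadjusted p = 0.0446). For BGN the interaction was 1.66 (SE 0.87, adjusted p = 0.392) and for ASPN 1.88 (SE 0.94, adjusted p = 0.364). No difference between the comparisons passed for any member.

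**Figure D2:**
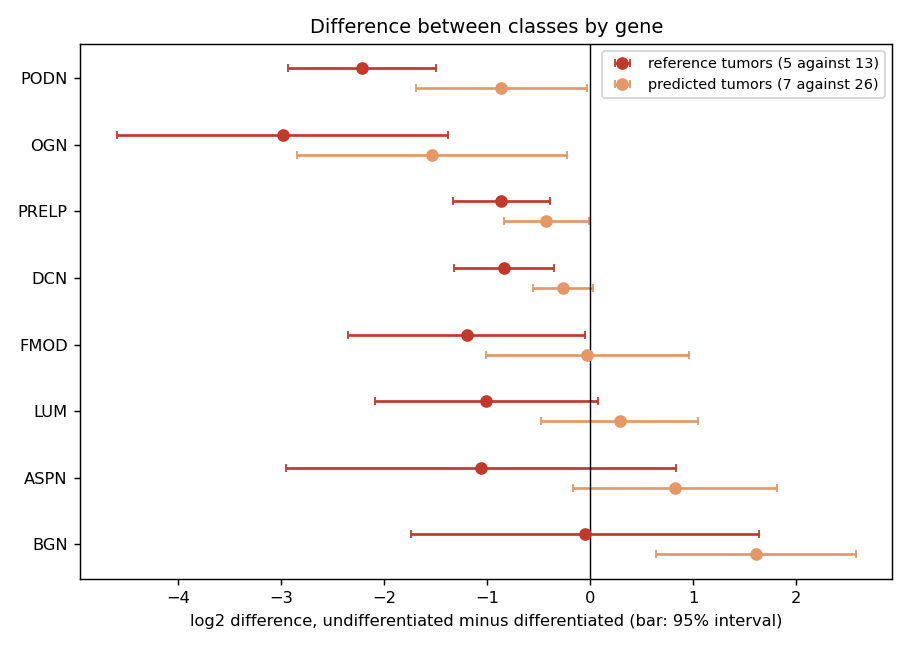
Log2 difference of undifferentiated minus differentiated tumors (x axis) for the 8 measured genes (y axis), with 95% intervals as bars, in the 18 reference tumors and in the 33 predicted tumors. The reference estimates lie at or left of 0 for all 8 genes, down to -2.98 for OGN, whereas BGN lies at 1.61 in predicted tumors.

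With all 51 tumors in 1 fit, which reuses the arrays of both comparisons, OGN and PODN were called lower in the 12 undifferentiated tumors, where 1.09% of all probes were called lower and 1.32% higher. The OGN difference was -2.08 (log2, SE 0.50, limma adjusted p = 0.00251), with 6 of 12 undifferentiated and 37 of 39 differentiated tumors well above background, and 11 of 12 undifferentiated tumors were below the differentiated median. The PODN difference was -1.37 (SE 0.30, adjusted p = 0.000869), 2.59-fold, again with 11 of 12 below that median. With normexp neither gene was called (OGN -0.76, PODN -0.48), and with age as a covariate OGN was at -1.81 (adjusted p = 0.0167) and was not called. DCN (-0.49, adjusted p = 0.00562) and PRELP (-0.60, adjusted p = 0.00462) passed the limit on p but not the 2-fold limit. These 4 genes were also the members lower at an adjusted p under 0.05, and 0 members were higher, where 7.04% of all probes were lower and 7.64% higher. BGN was at 0.97 (adjusted p = 0.133) and LUM, ASPN and FMOD at -0.20, 0.09 and -0.47 without passing.

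Sex, age and breed were given for most dogs. With the tumor class as a covariate, no member was called between 30 females and 19 males (0.0642% of all probes) or by age in 49 dogs (0% of all probes called, with 985 at an unadjusted limma p under 0.05, none of them of a member's brightest probe). No member was called between 7 Boxers and 7 Labrador Retrievers with differentiated tumors (0.0711% of all probes). The largest sex estimates were 0.39 for ASPN and -0.39 for OGN (log2, female minus male, adjusted p = 0.901 for each). PODN was 0.68 lower in Boxers with a 95% interval from -1.74 to 0.38 for Boxer minus Labrador Retriever, which includes a 2-fold difference.

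Across the 51 tumors, 27 of the 28 pairs of members had a positive Pearson r and 19 passed an adjusted p of 0.05 by permutation. The median r was 0.42, beside 0.00143 over all pairs of the 11654 named genes, of which 50.2% had a positive r. The strongest links tied BGN, ASPN and LUM to each other. ASPN and LUM correlated at r 0.79 (rho 0.73), BGN and ASPN at r 0.77 (rho 0.74) and BGN and LUM at r 0.71 (rho 0.71). A further run linked PRELP with PODN (r 0.72, rho 0.75), PODN with DCN (r 0.69, rho 0.72) and DCN with LUM (r 0.71, rho 0.74). For all 6 pairs the permutation p was 1e-05, the smallest that the resampling allows (adjusted p = 4.67e-05), and r stayed between 0.66 and 0.73 without the 2 tumors farthest from the median. Within scan sessions these 6 pairs had r between 0.69 and 0.80. BGN did not follow PODN (r -0.07, adjusted permutation p = 0.637) or PRELP (r 0.07, adjusted p = 0.625).

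The same groups were seen in the 39 differentiated tumors alone, where 17 of 28 pairs passed. ASPN and LUM correlated there at r 0.78, BGN and ASPN at 0.76, PODN and DCN at 0.77 and PRELP and PODN at 0.65. OGN stood closer to ASPN within differentiated tumors (r 0.77, rho 0.72, adjusted permutation p = 4.67e-05) than over all 51 (r 0.55), and its r with PODN was 0.09 (adjusted p = 0.676) against 0.39 over all 51. ASPN and OGN are neighbours on chromosome 1. DCN and LUM, which are neighbours on chromosome 15, correlated at r 0.76 in differentiated tumors, and FMOD and PRELP, near each other on chromosome 38, at r 0.36.

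**Figure D3:**
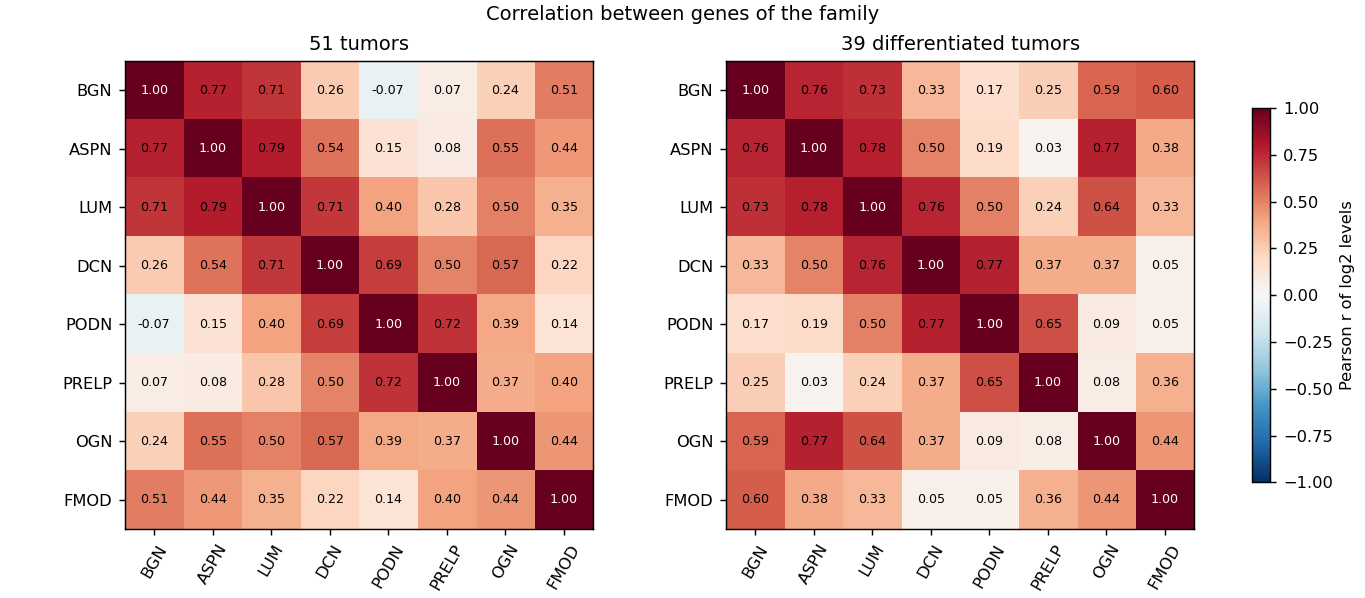
Pearson r of log2 levels for each pair of the 8 genes, in all 51 tumors (left) and in the 39 differentiated tumors (right), coloured from -1 (blue) to 1 (red). BGN, ASPN and LUM form a block of r 0.71 or more in each panel, and PODN has r -0.07 with BGN over 51 tumors.

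The 11653 other named genes were ranked by their r to each member over the 51 tumors, as a description. PODN was the gene with the highest r to PRELP, LUM was the 2nd for ASPN, and ASPN was the 3rd for BGN. Other members were far down, as PODN was the 6234th for BGN, and BGN was the 4465th and ASPN the 4410th for PRELP. Outside the family, BGN was most like P4HA2 (r 0.85), a subunit of the collagen prolyl hydroxylase, then PTK7 (0.84) and CALD1 (0.76). ASPN was most like the integrin subunit ITGB5 (0.80), the collagen-binding glycoprotein SPARC (0.77) and SRPX (0.77). FMOD was most like the growth factor TGFB3 (0.66), keratocan (KERA, 0.63) and P4HA3 (0.61).

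DCN was most like PDGFRL (0.86), LARP6 (0.86), which binds collagen messenger RNAs, and the complement factor CFD (0.85). PODN was most like OLFML1 (0.84), the TGF-beta co-receptor TGFBR3 (0.84) and ITGBL1 (0.84), and OGN like ANGPTL1 (0.69), EFEMP1 (0.66) and PDGFRL (0.64). PRELP was most like SORBS3 (0.72), CCDC80 (0.71) and RUSC2 (0.71). LUM was most like probes named NKG7 (0.88), D2HGDH (0.87) and ADRB3 (0.86), names not tied to matrix, as the array gives them.

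**Figure D4:**
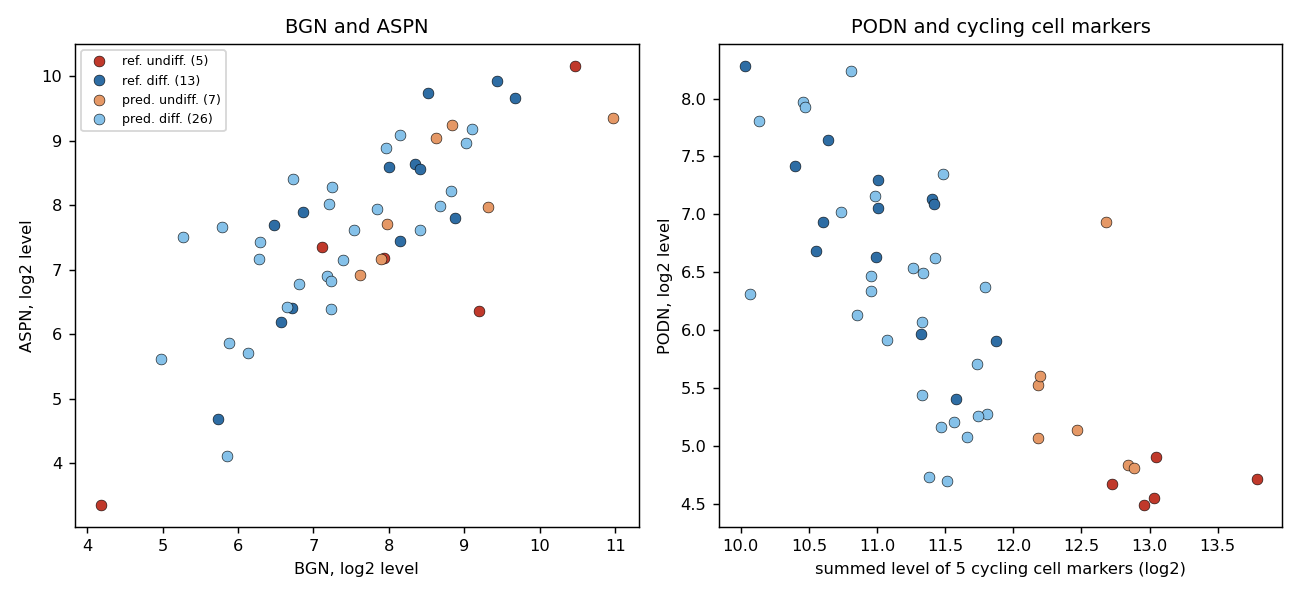
Left, ASPN against BGN (log2 levels) with 1 point for each of 51 tumors, r 0.77, with T9 at the lower left (4.18 and 3.36). Right, PODN (log2 level) against the summed level of 5 cycling cell markers (log2), where undifferentiated tumors lie from 12.18 to 13.79 and differentiated tumors from 10.03 to 11.87.

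Markers of the cells that make the family were set beside these levels. In whole tumor tissue, fewer cells of a type and less RNA per cell cannot be told apart. The summed level of 12 fibroblast markers (among them PDGFRA, THY1, FAP, DPT and COL1A1) followed LUM most closely over the 51 tumors (r 0.84, rho 0.89), then ASPN (r 0.74), DCN (r 0.72) and BGN (r 0.61), and PODN, OGN, PRELP and FMOD less so (r 0.49, 0.47, 0.32 and 0.29). The permutation p was 1e-05 for each of the first 4, the smallest possible. The sum adds intensities, and the 3 collagen genes among the markers (COL1A1, COL1A2 and COL3A1) made up 79.9% to 95.5% of it, so it follows mainly fibrillar collagen RNA. The mean log2 level of the other 9 markers, a measure added after the sum had been seen, gave another order, with DCN first (r 0.83), then LUM (0.73), PODN (0.55), ASPN (0.55), PRELP (0.42), OGN (0.41), BGN (0.37) and FMOD (0.22). That sum ran from 16.93 to 19.15 (log2) in reference undifferentiated and from 16.15 to 19.39 in reference differentiated tumors, with medians of 18.13 and 19.08. None of the 12 fibroblast markers was called in the reference comparison, and 11 of 12 had a lower mean in undifferentiated tumors (median -0.81). In predicted tumors the median was 0.14. The part of fibroblast content in the members' differences was not tested.

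All 6 measured mast cell markers, among them KIT and the high-affinity IgE receptor genes FCER1A and MS4A2, were well above background in all 51 tumors. Their sum ran from 17.71 to 19.24 in reference undifferentiated and from 17.53 to 18.87 in reference differentiated tumors, with medians of 19.01 and 18.40. Of the 6, 4 had higher and 2 lower means in reference undifferentiated tumors, and SRGN was called higher (1.12, limma adjusted p = 0.00309). In predicted undifferentiated tumors 5 of the 6 had lower means (median -0.65, among them HPGDS at -1.38 with a limma adjusted p of 0.0207 and KIT at -1.20 with 0.101), and none was called. Of 6 macrophage markers, CSF1R was called lower in reference undifferentiated tumors (-1.92, adjusted p = 0.00628). CD14 was called higher in predicted undifferentiated tumors (1.70, adjusted p = 0.000341). Means were lower for 5 of the 6 in reference undifferentiated tumors (median -0.46) and for 4 in predicted undifferentiated ones (median -0.09). Epidermal markers differed widely between tumors, with summed medians of 7.71 and 17.34 (log2) in reference undifferentiated and differentiated tumors and ranges from 7.27 to 17.86 and from 5.91 to 18.87. All 6 measured epidermal markers had lower means in reference undifferentiated tumors and higher means in predicted undifferentiated ones, and none was called. Skeletal muscle markers had higher means in undifferentiated reference tumors for all 5 measured genes, none called. Their median was 2.14, that of DES, while ACTA1 and MYH1 differed by 0.37 and 0.55. MYH2 and TNNT3 were well above background in 15 and 9 of 51 tumors. In predicted tumors the median of the 5 was 0.19. The part of these cells and tissues in the members' levels was not tested.

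The summed level of 5 cycling cell markers (TOP2A, CCNB2, CDC2, AURKB and TPX2) did not overlap between the classes, and mitotic index was one of the study's criteria, so their relation to the members is given within classes only. In the 39 differentiated tumors PODN fell as their sum rose, at r -0.69 (rho -0.68, adjusted permutation p = 4e-05 for each), -0.77 within scan sessions and -0.72 without T100 and T117. DCN (r -0.51, adjusted p = 0.00185), PRELP (r -0.50, adjusted p = 0.0022) and LUM (r -0.36, adjusted p = 0.0396) went the same way. BGN, ASPN, FMOD and OGN had r between -0.05 and -0.01 there. In the 12 undifferentiated tumors PODN had rho -0.69 (permutation p = 0.018) and r -0.42 (permutation p = 0.175), whereas DCN, PRELP and LUM had r of -0.14, 0.04 and 0.06. These p-values are adjusted over 16 relations, 8 genes with 2 marker sums, except those in the 12 undifferentiated tumors, which are unadjusted. CCNB2 is also one of the 13 transcripts that set the predicted classes.

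The rest of the family was taken from a list of 8 further small leucine-rich proteoglycan and related genes, of which 7 were measured. ECM2, a matrix protein with leucine-rich repeats encoded beside ASPN, was the only one called in the reference tumors, at 6.11 ± 0.51 (log2, SD, n = 5) against 8.41 ± 0.88 (SD, n = 13), a difference of -2.30 (limma adjusted p = 0.00218). It differed by -1.41 in predicted tumors (adjusted p = 0.0142) and was not called there. Keratocan (KERA), the corneal member next to LUM, had a measured difference of -1.66 in reference tumors (limma adjusted p = 0.0438). KERA was well above background in 17 of 51 tumors. Among reference tumors it was so in 0 of 5 undifferentiated and 7 of 13 differentiated ones, so no fold is given. Chondroadherin (CHAD), the cartilage member, differed by -0.49 (adjusted p = 0.129), tsukushi (TSKU) by 0.15 (adjusted p = 0.576) and PODNL1, the closest relative of PODN, by -0.16 (adjusted p = 0.593). Epiphycan (EPYC) of growth plate cartilage and opticin (OPTC) of the eye were well above background in 3 and 12 of 51 tumors.

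Of 15 probes with no gene name beside the members, 5 had r of at least 0.7 with a member of the same chromosome region and 10 had r under 0.4 with each of them. Among the 10 were TC74429 near PODN (r -0.13), CO618142 near OGN (r -0.08) and TC63452 near LUM (r 0.08). TC63452 was well above background in 35 of 51 tumors, but TC74429 and CO618142 were so in 0. CO692701 and DN368091, also among the 10, were well above background in 1 tumor each. For probes without signal a low r cannot show whether they follow a member. On the plus strand of chromosome 1 the array order was ECM2, ASPN, TC53302, A_11_P111806, OGN and DN879664. TC53302, which the array describes as a periodontal ligament associated protein (a former name of asporin), followed ASPN at r 0.98 over the 51 tumors. DN879664 (chr1:102027506-102027565), just past the OGN probe, followed OGN at r 0.95. It was well above background in 0 of 5 undifferentiated and 12 of 13 differentiated reference tumors, and was at least 3.67-fold lower in the former (limma adjusted p = 0.00347, measured means 2.40 and 5.97). A_11_P111806 (chr1:102000239-102000491) lay between ASPN and OGN, where RefSeq places OMD, and fell by 2.15 on the log2 scale (adjusted p = 0.00326), with 2 of 5 undifferentiated tumors well above background. The array does not say which gene it measures. On the minus strand CENPP, a centromere protein gene, rose by 1.83 (adjusted p = 7.48e-05), as did the unnamed TC59682 next to it (1.89, adjusted p = 0.00415), which was well above background in 5 of 5 undifferentiated and 3 of 13 differentiated tumors. RefSeq has CENPP run across ECM2, ASPN, OMD and OGN on the other strand. CENPP is also one of the 13 class transcripts.

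Next to PRELP, TC49663 (chr38:3212146-3212205, plus strand) averaged 9.86 ± 1.39 (log2, SD, n = 5) in the 5 undifferentiated reference tumors and 13.1 ± 0.73 (SD, n = 13) in the 13 differentiated ones (log2 difference -3.27, limma adjusted p = 0.000458). It correlated with PRELP at r 0.71 over the 51 tumors and is in the study's list of lower transcripts. Next to PODN, DN878849 (chr5:58828764-58828823, minus strand) stood at 8.63 ± 0.69 (log2, SD, n = 5) against 11.6 ± 1.27 (SD, n = 13), a difference of -3.02 (adjusted p = 0.00378), and correlated with PODN at r 0.90. Whether these unnamed probes measure the neighbouring member is not stated on the array. They were looked at after the members' values were known.

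**Figure D5:**
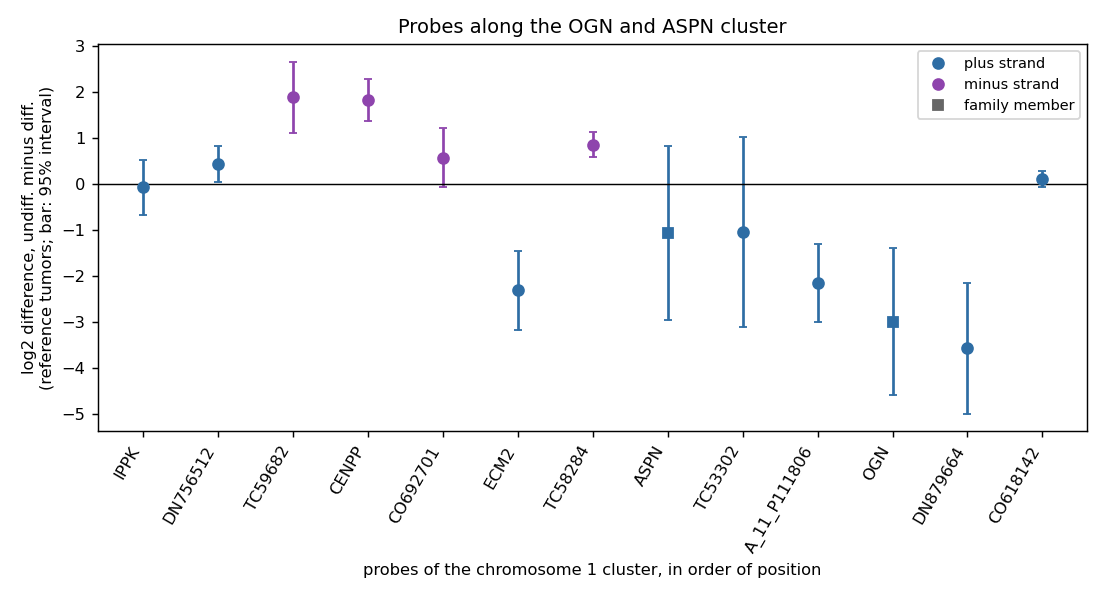
Log2 difference of undifferentiated minus differentiated reference tumors (y axis, bars are 95% intervals) for the probes around ASPN and OGN on chromosome 1, in order of position (x axis, not to scale), with plus strand probes in blue, minus strand probes in purple and the members as squares. The plus strand probes from ECM2 to DN879664 lie between -3.56 (DN879664, well above background in 0 of 5 undifferentiated tumors) and -1.03, whereas CENPP and TC59682 on the minus strand lie at 1.83 and 1.89.

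The partners of the family were described from further lists. Of 10 measured collagens that the family binds or that form the same fibrils, all had lower means in undifferentiated reference tumors (median -0.77, against 0.04 over all probes), and 1 was called. This was COL14A1, a fibril-associated collagen that binds decorin, at 5.20 ± 1.32 (log2, SD, n = 5) against 8.91 ± 0.99 (SD, n = 13), a difference of -3.72 (limma adjusted p = 0.000510). In predicted tumors 7 of the 10 collagens had higher means and none was called. Of 16 measured TGF-beta ligands, receptors and targets, TGFBR3 was called lower in reference tumors (-1.78, adjusted p = 0.000903), and TGFBI, a TGF-beta-induced matrix protein, was called higher in predicted tumors (1.15, adjusted p = 0.00623).

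Of 23 measured genes for the synthesis of glycosaminoglycan chains, CHSY1, a chondroitin synthase, was called higher in reference tumors (1.21, limma adjusted p = 0.00746) and the other 22 were not called, with a median of 0.09. CHST11, a chondroitin sulfotransferase, was called higher only in the fit of all 51 tumors (means 7.04 and 5.54, adjusted p = 0.000206). Of 8 measured proteases that cleave the family none was called in reference tumors. MMP3 stood there at 7.19 ± 4.84 (log2, SD, n = 5) against 2.22 ± 0.61 (SD, n = 13), with a limma adjusted p of 0.0202. In predicted tumors MMP3 (means 8.75 and 2.43, adjusted p = 0.000118) and MMP13 (means 5.51 and 2.67, adjusted p = 0.00019) were called higher in undifferentiated tumors. MMP3 and MMP13 were also called higher in the fit of all 51 tumors (adjusted p = 1.7e-07 and 4.26e-05). They were well above background in 14 and 9 of 51 tumors, so no fold is given. None of 7 receptors of the family was called in any of the 3 comparisons. Of 15 measured other proteoglycans SRGN, the serglycin of mast cell granules, was called higher in reference undifferentiated tumors (1.12, adjusted p = 0.00309) and was at 0.22 in predicted ones (adjusted p = 0.730).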

How the data were processed

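RNA of 51 MCTs was labelled with Cy3 and hybridized to canine 4x44k Agilent arrays, of which 1 per tumor was used here. The authors extracted spot intensities with Feature Extraction, and the deposited scanner files hold these linear intensities (background-subtracted processed signal) with flags. The deposited value table holds the authors' quantile-normalized values, used as an alternative after taking log2.

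Here the processed intensities were taken as log2, spots flagged as outliers themselves were set to missing (2 to 35 per array), and values were quantile-normalized over the 51 arrays. The 43603 non-control probes were tested with limma 3.58.1 in R 4.3.3 (lmFit, eBayes, Benjamini-Hochberg over all probes). Calls needed an adjusted p under 0.01 and at least 2-fold, the limits of the study, or an adjusted p under 0.05 for interaction, sex, age and breed. The study used SAM, which was not run, and limma took its place. Flags of a spot's background region were kept out of this step after fits with and without them had been seen, and the call of DCN depends on that choice. Intervals are 95% from the limma t distribution. Correlations used 100000 permutations, two-sided, over 28 pairs (NumPy 2.4.6). The number of arrays limits the precision. On simulated arrays of 5 against 13 tumors with 200 probes changed by 2 on the log2 scale, 153 were called, with 2 unchanged probes called. The changed probes were drawn at random, and each probe had the same SD in both classes. The count therefore does not carry over to members with a wide spread, such as OGN, ASPN and BGN.

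Classes are those of the study, matched by case number; 1 undifferentiated reference tumor, LM0, was matched by elimination. GEO's labels give only tissue, breed, sex and age. The members and gene lists were chosen with earlier results of these data known. Genes named were all members, the other family genes, up to 2 called genes in each direction of each further list, the 3 non-member genes most correlated with each member (brightest probe of each gene), and neighbours of members. Of the 3211 names on the array that are locus numbers, 2519 were matched to RefSeq symbols. Two-sided tests were used throughout. The limma p-values judge a difference against the spread between tumors, and those of correlations come from permutation. Alternatives covered scaling, background correction, the authors' table, dim probes, flags, probe averaging, slide, scan session, sex, age, the methods' t-test with the same limits and leaving out each reference tumor.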

Additional observations from a re-analysis of the deposited data

Results flagged for a closer look

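PODN in the predicted undifferentiated tumor T115 stood at 6.93 (log2), far above the other 6 tumors of its class, with a gap to the next tumor of 0.626 of the whole range (limit 0.568). Of 16 groups examined this was the only such value. Chance gives such a value in about 1 of 20 groups, so 1 among 16 groups is about what chance gives.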

How the results depend on the processing

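The count of members called lower in reference tumors was 1 (PODN) and became 2 with percentile scaling (PRELP added, adjusted p = 0.00743), 2 at an adjusted p under 0.05 (OGN added), 2 with background flags also missing (DCN added, an alternative chosen after seeing the data), and 0 with normexp (PODN -0.74, adjusted p = 0.0108), with scan session (0) or with slide (0; PODN -2.81, adjusted p = 0.0665) as a fixed block. Over the 18 fits that each left out 1 reference tumor it ran from 1 to 2, with 2 without T57 (DCN -1.08, adjusted p = 0.00364), and PODN was called in all 18. The count over all 51 tumors was 2 and became 0 with normexp (OGN -0.76, PODN -0.48) and 1 with age as a covariate (OGN -1.81, adjusted p = 0.0167). The count of members called lower in predicted tumors stayed at 0 in the 12 alternatives run, and at an adjusted p under 0.05 BGN was called higher there (1.61, adjusted p = 0.0382). The cause of these changes was not tested. The calls over all probes in the reference comparison, 805, were 416 with normexp, 345 with the session and 54 with the slide as a fixed block, and 1757 at an adjusted p under 0.05. The interaction called 42 probes and, without T57, 1530 (none of a member, DCN adjusted p = 0.0511). Of 28 pairs, 18 to 20 correlated past the threshold in the 3 alternatives run.

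Signs turned for some estimates that passed no threshold. For BGN in reference tumors the value was 0.16 with normexp, 0.0278 with sex and 0.33 with age as a covariate, and from -0.72 to 0.85 over the fits leaving out 1 tumor (above 0 without T9, T55, T64, T90, T100 or T101). For FMOD in predicted tumors it was 0.0497 with percentile scaling, 0.11 with sex and 0.0215 with age. For ASPN in all 51 it was -0.14 without T57 and 0.204 without LM0. For female minus male it was 0.0653 (FMOD) and 0.0853 (PODN) with percentile scaling, and 0.0838 (FMOD), 0.0429 (PODN) and -0.0067 (DCN) with slide as a random block. For Boxer minus Labrador Retriever it was 0.54 (ASPN) and 0.11 (LUM) with slide as a random block. No paired analysis was possible because replicate numbers only count the tumors of 1 group of samples. Low signal limits FMOD, OGN and PODN probes 2 and 3, which were not above background in many tumors.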
